A study of Mus musculus with 2 samples.

Results

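Notch signalling passes a message between cells that touch. A ligand of the Delta or Jagged family on one cell binds a Notch receptor on its neighbour, the receptor is cut, and its intracellular domain enters the nucleus, where it joins the DNA-binding protein RBPJ and turns on repressors of the Hes and Hey families. In embryos the pathway is known for keeping muscle progenitors from differentiating, for separating arterial from venous and tip from stalk endothelial cells, for the coats of blood vessels, and for layering and skeletal differentiation in the jaw and skin. The 10 genes described here are the receptors Notch1, Notch2 and Notch3, the ligands Dll1, Dll4, Jag1 and Jag2, and the targets Hes1, Hey1 and Heyl. They were chosen by name, are listed in both count tables, and are 10 of 17775 genes listed at embryonic day 13.5 (E13.5) and of 16236 listed at embryonic day 11.5 (E11.5).

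The study profiled single cells of the mouse mandibular prominence, the embryonic swelling from which the lower jaw and much of the tongue develop, by droplet-based 10x RNA sequencing. Both groups were wild-type embryos of the outbred CD1 strain, taken at E13.5 and at E11.5, with 1 library each. The tissue was dissociated for 10 minutes with a cold-active protease at 5 mg/ml for E13.5 and at 3 mg/ml for E11.5. How many embryos went into a library, and of which sex, is not given in the sources used here. With 1 library per stage there is no replicate check and no test, and stage, library and protease concentration cannot be told apart.

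Counts are UMIs, molecular tags that count each captured transcript once. There were 67838169 UMIs over 6318 cells at E13.5 (median 9280 a cell) and 49913485 over 7099 cells at E11.5 (median 6231). At least 1 UMI of a member was found in 4201 E13.5 cells and in 3763 E11.5 cells. The libraries shared 71 cell barcodes. The deposited cells were not filtered to the same limits, with a lowest UMI count of 500 at E13.5 and 2253 at E11.5, and a highest mitochondrial share of 19.98% at E13.5 and 7.90% at E11.5. Levels are CPM, the summed UMIs of a gene in a group of cells scaled to 1e+06 UMIs of that group. CPM counts molecules and is set between groups of cells, not between genes. A gene was called higher or lower when the ratio was at least 1.5-fold and its exact 95% interval excluded 1, with at least 20 UMIs over both groups. That is a rule of size, and every interval covers counting error only.

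Erythroid cells, which should lack most of these transcripts, gave a guide to the background from free RNA. After each cell was thinned to 2000 UMIs, 0.971% of E13.5 and 2.63% of E11.5 erythroid cells held a UMI of Hes1, at unthinned medians of 18517 and 13137 UMIs. The thinned erythroid share of any other member was at most 0.971% at E13.5 and 0.877% at E11.5. Erythroid markers made up 880472 CPM of the E13.5 erythroid cluster, and 691375 and 596512 CPM of E11.5 clusters 11 and 12. These cells are also deep, so their thinned shares and CPM can understate the background in shallower cells. Without thinning, Hes1 was found in 10.6% of E13.5 and 12.7% of E11.5 erythroid cells, so a low share of unthinned cells was not read as expression. Between the stages 3 of 3 measured members were lower and 0 higher in erythroid cells at E13.5, against 90% of genes lower and 0.921% higher, so nothing is read from that class.

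**Figure D1:**
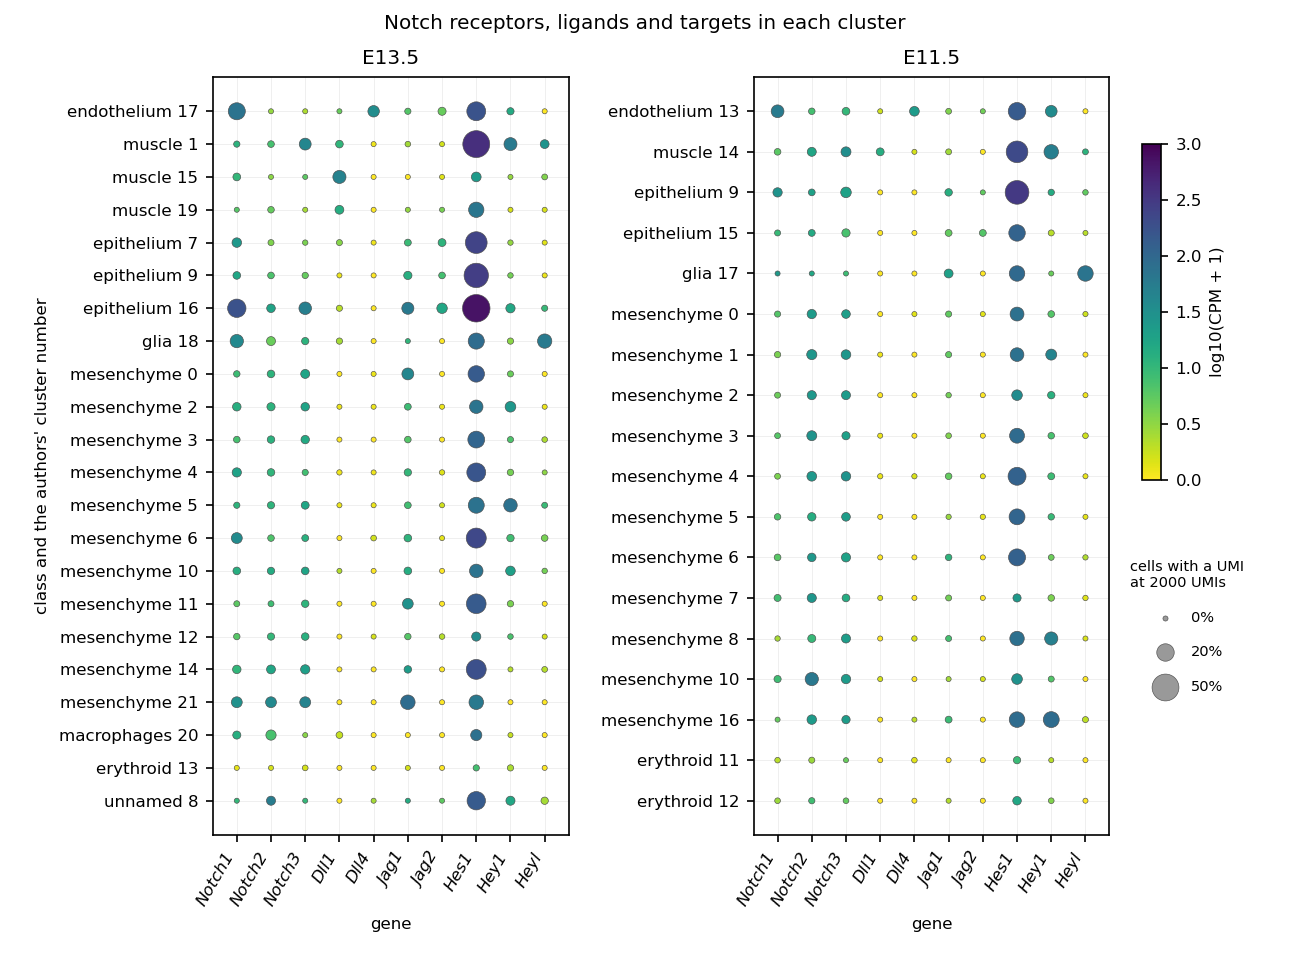
Level and share of cells for the 10 members in every deposited cluster, E13.5 on the left and E11.5 on the right. Colour is log10(CPM + 1) and dot size is the share of cells with a UMI after thinning to 2000 UMIs. Dll4 stands out in the endothelial clusters, Dll1 in the muscle clusters, Heyl in glia and in muscle cluster 1, and Hes1 is found in nearly every cluster.

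The Delta ligands were each held mostly by 1 class that is a small share of the cells. Dll4, the Delta ligand of arterial and sprouting endothelium, had 82.0% of its 61 E13.5 UMIs and 80% of its 40 E11.5 UMIs in the endothelial cluster. Its level there was 33.5 CPM at E13.5 (24.8 to 44.1) and 22.1 CPM at E11.5 (15.1 to 31.2), and no other cluster exceeded 1.53 CPM. Dll1, the Delta ligand of the myogenic and other lineages, had 88.6% of its 273 E13.5 UMIs and 79.3% of its 29 E11.5 UMIs in skeletal muscle. Jag2, a Jagged ligand of oral epithelium needed for normal palate and tongue covering in mice, had 76.2% of its 130 E13.5 UMIs and 58.3% of its 24 E11.5 UMIs in epithelium. Jag1, the broadly used Jagged ligand, had 71.5% of its 724 UMIs in the mesenchyme at E13.5 and 77.8% of its 203 at E11.5, the class that also holds most cells.

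The receptors and targets were spread over more classes. Notch1 reached 176 CPM in E13.5 epithelial cluster 16 and 71.0 CPM in the E13.5 endothelium, against 56.6 CPM in the E11.5 endothelium, where it had its highest E11.5 level. Notch3, a receptor of vessel wall and muscle progenitor cells, had 42.0% of its 1015 UMIs in muscle at E13.5 and 6.36% of 944 at E11.5, when muscle was a smaller share of the cells. Hes1, the general Notch target, was found after thinning in 38.4% of E13.5 and 31.9% of E11.5 epithelial cells, in 36.8% of E13.5 and 31.8% of E11.5 muscle cells, and in 18.03% of E13.5 and 12.8% of E11.5 mesenchyme cells. The unthinned shares in mesenchyme were 40.3% at E13.5 and 28.9% at E11.5. Heyl, a Hey-family target typical of vessel coats and myoblasts, had 63.5% of its 455 E13.5 UMIs in muscle, 17.1% in mesenchyme and 16.7% in glia, while 64 UMIs in all were counted at E11.5.

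The genes lie apart in the genome (GRCm38). The receptor genes are Notch1 at chr2:26457903-26516663, Notch2 at chr3:98013527-98150361 and Notch3 at chr17:32120820-32166852. The ligand genes are Dll1 at chr17:15367354-15376872, Dll4 at chr2:119325784-119335962, Jag1 at chr2:137081456-137116644 and Jag2 at chr12:112907819-112929776. The target genes are Hes1 at chr16:30064384-30067796, Hey1 at chr3:8663359-8667256 and Heyl at chr4:123233556-123249875. Notch1, Notch3, Dll1 and Dll4 overlap an annotated gene on the other strand, and the use of strand in counting is not given in the sources used here, so their reads cannot be told apart from reads of that partner. On the same strand Notch1 overlaps Mir6996, Notch2 overlaps Gm42819 and Gm42820, and Jag2 overlaps Mir6941.

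RefSeq promoter windows (GRCm38.p6, 250 bases before to 50 after a gene's start) were at hand for 7 of the 10 members, and not for Hes1, Hey1 and Heyl. None of the 7 held the RBPJ core motif GTGGGAA on either strand, a motif found in 6.38% of 32851 such windows of all genes. Of 41 other pathway genes with a window, 7 held it, in 7 of their 54 windows. Among them were the targets Hes5 and Hey2 and the receptor-modifying enzyme Lfng, whose levels are given below. These 3 windows are shown 5′ to 3′ on the gene's strand, with the motif on either strand in capitals, because they show how the recognition sequence of the pathway looks in 3 of its genes that are measured here. Hes5 is at chr4:154960673-154960972 on the plus strand, Hey2 at chr10:30842734-30843033 on the minus strand and Lfng at chr5:140607091-140607390 on the plus strand.
Hes5: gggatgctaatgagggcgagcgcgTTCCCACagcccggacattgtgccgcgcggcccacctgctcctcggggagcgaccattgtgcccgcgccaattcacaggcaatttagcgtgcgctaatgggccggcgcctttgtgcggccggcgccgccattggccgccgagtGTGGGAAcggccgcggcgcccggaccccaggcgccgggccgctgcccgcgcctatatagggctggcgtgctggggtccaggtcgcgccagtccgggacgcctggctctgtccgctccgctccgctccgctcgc
Hey2: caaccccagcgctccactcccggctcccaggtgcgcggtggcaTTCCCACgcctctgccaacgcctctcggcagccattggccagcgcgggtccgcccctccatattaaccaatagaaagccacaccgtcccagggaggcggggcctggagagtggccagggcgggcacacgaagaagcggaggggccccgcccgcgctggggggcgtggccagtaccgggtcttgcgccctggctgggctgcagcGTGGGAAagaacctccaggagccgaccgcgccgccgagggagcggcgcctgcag
Lfng: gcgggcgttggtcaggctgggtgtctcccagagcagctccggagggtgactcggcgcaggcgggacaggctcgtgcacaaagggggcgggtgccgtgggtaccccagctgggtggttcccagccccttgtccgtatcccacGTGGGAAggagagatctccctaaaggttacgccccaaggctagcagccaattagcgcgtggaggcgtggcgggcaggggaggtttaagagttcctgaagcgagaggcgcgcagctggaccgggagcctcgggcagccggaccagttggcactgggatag
Hes5 and Hey2 each held 2 matches and Lfng held 1. A match of letters is a description and says nothing of binding in these cells.

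The first comparison asked how the members differed between the stages within the mesenchyme, which comes mostly from the neural crest and forms the skeleton and connective tissues of the jaw. Receptor levels shifted between family members, with Notch1 higher and Notch2 and Notch3 lower at E13.5, while Jag1, Heyl and Hes1 were higher. Of 7 measured members 4 were higher and 2 lower at E13.5, against 27% of 14139 genes higher and 12.2% lower. The median log2 ratio of the 7 was 0.66, and that of all genes 0.14.

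Notch1 was at 12.8 CPM in the E13.5 mesenchyme and at 4.504 CPM in the E11.5 mesenchyme, a ratio of 2.85 (2.38 to 3.42). Notch2 was at 10.5 CPM at E13.5 and 24.6 CPM at E11.5, a ratio of 0.427 (0.377 to 0.482). Notch3 was at 14.02 CPM at E13.5 and 21.5 CPM at E11.5, a ratio of 0.653 (0.582 to 0.732). Of the receptors Notch1 alone was thus the higher one at E13.5. With cells called G1 only, the Notch3 log2 ratio was -0.36 and no longer called. With a total that leaves out haemoglobin, mitochondrial and ribosomal protein genes 1 of the 2 lower members was called.

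Jag1 was at 15.1 CPM in the E13.5 mesenchyme and 4.24 CPM in the E11.5 mesenchyme, a ratio of 3.57 (2.98 to 4.29). The other ligands were under 20 UMIs in this class and not measured. Among the targets, Hes1 was at 120 CPM at E13.5 and 76.0 CPM at E11.5, a ratio of 1.58 (1.51 to 1.66) that lies close to the threshold. It was not called with median-of-ratios size factors, with the mean of each cell's CPM or in G1 cells, at log2 ratios of 0.57, 0.56 and 0.26. Hey1 did not pass, at 17.5 CPM at E13.5 and 16.6 CPM at E11.5. Heyl had 78 UMIs at E13.5 and 16 at E11.5, a ratio of 5.30 (3.07 to 9.73), and its log2 ratio of 2.41 was 1.04 without the mural-marker cells described below and 0.21 in G1 cells.

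**Figure D2:**
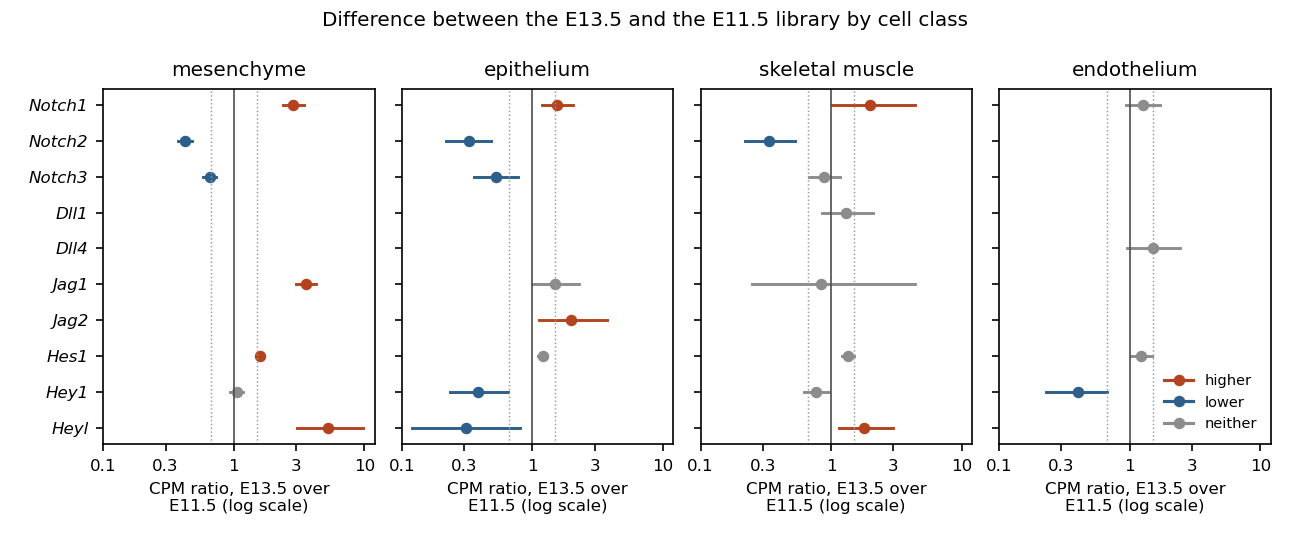
Ratio of CPM, E13.5 over E11.5, for each measured member in 4 cell classes, on a log scale. Points are ratios, lines their exact 95% intervals for counting error, dotted lines the 1.5-fold limits, and colours the call. Notch2 is lower in the mesenchyme, epithelium and skeletal muscle, and Hey1 is lower in epithelium and endothelium and near 1 in the mesenchyme.

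The other genes of the pathway were counted in the same class from a list of 48. In the mesenchyme 16 were higher and 3 lower of 48 measured, against 27% of all genes higher and 12.2% lower. Their median log2 ratio was 0.38, and that of all genes 0.14. Lfng, the fringe enzyme that adds sugars to Notch receptors and alters their choice of ligand, was at 6.59 CPM at E13.5 and 0.429 CPM at E11.5, a ratio of 15.4 (9.26 to 27.3). Hes5, a direct target, was at 2.13 CPM at E13.5 and 0.268 CPM at E11.5, a ratio of 7.94 (4.08 to 17.2). Few cells carried it, with 73 UMIs in 15 of 3905 cells at E13.5 (0.384%, 0.215 to 0.633) and 10 UMIs in 10 of 5899 cells at E11.5 (0.170%, 0.0813 to 0.312), and these shares of cells have overlapping intervals. Both highest ratios thus came from genes with 16 or fewer UMIs at E11.5. The lowest were Tle3, a co-repressor used by Hes proteins, at 17.4 CPM at E13.5 and 33.8 CPM at E11.5, and Maml2, a coactivator of the Notch complex, at 4.11 CPM at E13.5 and 6.62 CPM at E11.5.

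Of the remaining listed genes in the mesenchyme, Notch4 was at 2.42 CPM at E13.5 and 3.73 CPM at E11.5 and called lower. Rbpj, the DNA-binding partner of the cleaved receptors, was at 26.9 CPM at E13.5 and 28.5 CPM at E11.5. Hes6, a Hes1 antagonist, had a ratio of 1.28, Hey2 1.19, Nrarp, a feedback inhibitor, 1.41, Mfng 1.09 and Rfng 1.46, and none of these passed.

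Within the mesenchyme the members were patterned by cluster. Clusters were made from all genes, and Hey1 and Notch2 are themselves among the leading genes of E11.5 clusters 16 and 10, so the values that follow are a description. Hey1 was highest in E13.5 cluster 5, named osteogenic progenitors by the authors and led by Ibsp, Ifitm5 and Sp7, at 75.5 CPM (67.7 to 84.0), and next in cluster 2, led by Pax1 and Irx1 among others, at 24.5 CPM. At E11.5 it was highest in cluster 16, led by Inhba and Penk, at 87.4 CPM (69.9 to 108), followed by clusters 8 and 1, which share Cbln4, Pax3 and Dkk1, at 50.02 and 43.8 CPM. The median cluster stood at 5.86 CPM at E13.5 and 7.88 CPM at E11.5, so Hey1 levels that hardly differed over the whole class were held by few clusters at either stage. Hey2, the related target, was highest in E13.5 clusters 2 and 10, at 37.5 and 27.7 CPM, and in E11.5 clusters 8, 6 and 1, at 33.5, 27.2 and 24.1 CPM. In the osteogenic cluster 5 Hey2 was at 1.34 CPM.

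Apart from the small cluster 21, Jag1 was highest in E13.5 clusters 0, 11 and 14, led by Ebf1 and Gdf10, by Foxq1 and Meox2, and by Dpt and Cbln2, at 40.7 (35.0 to 47.1), 30.5 (23.9 to 38.4) and 21.6 CPM (15.3 to 29.7). Cluster 21 had 89.5 CPM from 12 UMIs in 72 cells with a median of 1833 UMIs and 14.5% mitochondrial UMIs. At E11.5 the highest mesenchymal level of Jag1 was 10.4 CPM, in cluster 6. The osteogenic cluster 5, high in Hey1, had 7.13 CPM of Jag1. Among E13.5 mesenchyme cells Hey1 was found in 6.18% of cells with a Jag1 UMI and in 9.49% of the others before thinning. After thinning it was found in 1.63%, or 2 of 123 cells, and in 3.11%. Among E11.5 mesenchyme cells the order before thinning was the other way, with 13.5% of cells with a Jag1 UMI and 8.32% of the others. After thinning the E11.5 shares were 2.38%, or 1 of 42 cells, and 2.94%.

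Notch1 was highest in E13.5 cluster 6, led by Aldh1a3 and Thbs4, at 35.5 CPM (29.3 to 42.7). The same cluster had the highest mesenchymal level of Hes1, at 223 CPM (207 to 240), while cluster 12, led by Prdm6 and Kera, had the lowest, at 33.8 CPM. Notch2 was highest in E11.5 cluster 10, led by Sox9, Mecom and Col2a1, at 61.6 CPM (50.8 to 74.1), with 8.74 to 28.0 CPM in the other mesenchymal clusters of that stage. Notch3 lay between 13.4 and 27.6 CPM at E11.5, a ratio of highest to lowest cluster of 2.07 (1.38 to 3.17). Lfng was highest in E13.5 clusters 0 and 10, at 17.7 and 10.8 CPM, leaving out cluster 21 with 3 UMIs, and under 1.5 CPM in every E11.5 mesenchymal cluster.

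Mesenchyme cells with at least 2 different markers of pericytes and other mural cells, the coat of small vessels, numbered 145 at E13.5 and 35 at E11.5. The markers hold no member. Of 8 markers 7 were listed at E13.5 and 6 at E11.5, and the set is a range and not a type, with 1007 E13.5 and 756 E11.5 cells just outside it with 1 marker. Of the 145 E13.5 cells 117 had exactly 2 markers. The summed E13.5 level of the markers was highest in epithelial cluster 16, at 169 CPM, and next in mesenchymal cluster 5, at 148 CPM, so the list is not particular to vessel coats. Of 7 measured members 4 were higher and 1 lower in the mural-marker cells of E13.5 than in the other mesenchyme cells, against 3.92% of genes higher and 3.73% lower.

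Heyl was at 29.1 CPM in the E13.5 mural-marker cells and 0.889 CPM in the other E13.5 mesenchyme cells, a ratio of 32.7 (20.2 to 53.6). Hey1 was at 54.6 CPM in the marker cells and 15.6 CPM in the others, a ratio of 3.50 (2.77 to 4.37). Notch3, the receptor known for vessel wall cells, was at 24.9 CPM in the marker cells and 13.5 CPM in the others, a ratio of 1.85 (1.31 to 2.54). So 49 of the 78 mesenchymal Heyl UMIs lay in 145 of 3905 cells. Notch1 was also higher, with a ratio of 2.71 (1.996 to 3.60), Notch2 was lower, with a ratio of 0.496 (0.225 to 0.952), and Jag1 and Hes1 passed neither way. The smooth muscle gene Acta2 was at 288 CPM in the marker cells and 29.0 CPM in the others.

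The marker cells were the deeper ones, with a median of 10739 UMIs against 8243 in the other mesenchyme cells, and 58 of the 145 lay in the osteogenic cluster 5. That cluster is itself the highest E13.5 mesenchymal cluster for Hey1, at 75.5 CPM, and for Heyl, at 8.25 CPM. The parts of depth and of cluster make-up in these ratios were not tested. At E11.5 Hey1 was higher, at 38.5 CPM in the 35 marker cells and 16.5 CPM in the others (ratio 2.33, 1.16 to 4.21), as 1 of 6 measured members, against 2.09% of genes higher and 1.22% lower. Of these 35 cells 8 lay in cluster 1, 5 in cluster 16 and 4 in cluster 8, the E11.5 mesenchymal clusters highest in Hey1. The part of cluster make-up was not tested here either. Heyl had 0 UMIs in the E11.5 marker cells, which allows up to 10.5 CPM, and 16 UMIs in the others.

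**Figure D3:**
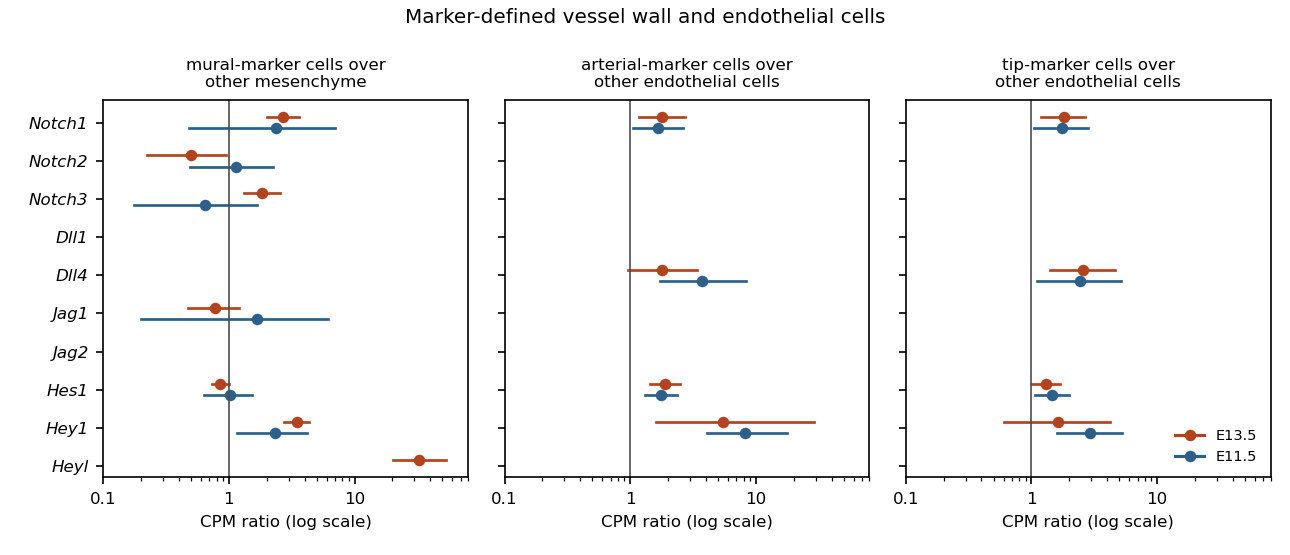
Ratio of CPM within each library for measured members, E13.5 in red and E11.5 in blue: mural-marker cells over other mesenchyme cells, arterial-marker cells over other endothelial cells and tip-marker cells over other endothelial cells, on a log scale with exact 95% intervals for counting error. Heyl in the E13.5 mural-marker cells has the largest ratio, 32.7.

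In skeletal muscle, the second class, Notch1 and Heyl were higher and Notch2 was lower at E13.5. Of 8 measured members 2 were higher and 1 lower, against 9.38% of 11428 genes higher and 13.7% lower (14.1% higher and 7.78% lower with median-of-ratios size factors, which move the median log2 ratio of all genes from -0.12 to 0.09). The median log2 ratio of the members was 0.11. Heyl was at 19.7 CPM in E13.5 muscle and 10.95 CPM in E11.5 muscle, a ratio of 1.80 (1.14 to 2.99). Notch1 was at 9.75 CPM at E13.5 and 4.93 CPM, from 9 UMIs, at E11.5, a ratio of 1.98 (1.014 to 4.42). Notch2 was at 5.52 CPM at E13.5 and 16.4 CPM at E11.5, a ratio of 0.336 (0.219 to 0.530).

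Notch3, Dll1, Jag1, Hes1 and Hey1 passed neither way. Notch3 was at 29.0 CPM in E13.5 muscle and 32.9 CPM in E11.5 muscle, Dll1 at 16.5 and 12.6 CPM at those stages, Hes1 at 286 and 213 CPM, and Hey1 at 40.9 and 53.1 CPM. These whole-class values mix cells at different steps of differentiation: the 151 E11.5 muscle cells were 1 cluster, and the 752 E13.5 cells were 3. In cells called G1, which at E13.5 are mostly differentiating, the log2 ratio of Notch1 was -0.16 and that of Heyl -2.30, the reverse of the whole class.

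Of 40 other pathway genes measured in muscle 6 were higher and 7 lower, against 9.38% of all genes higher and 13.7% lower. Dtx4, a Deltex regulator of receptor traffic, had 76 UMIs at E13.5 and 1 at E11.5 (ratio 9.46, 1.65 to 379), and Dner, a membrane protein related to Delta, was at 12.6 CPM at E13.5 and 2.19 CPM at E11.5, a ratio of 5.76. The lowest were Numb, an inhibitor of Notch, with a ratio of 0.479, and Aph1b, a subunit of the receptor-cutting protease, with 0.503. Hes6 was higher, at 394 CPM at E13.5 and 227 CPM at E11.5 (1.74, 1.57 to 1.93). Lfng was at 53.4 CPM at E13.5 and 52.6 CPM at E11.5, Rbpj at 43.5 and 36.7 CPM, Nrarp at 6.41 and 7.12 CPM, and Notch4, Mfng and Rfng had ratios of 0.772, 2.82 and 0.897, none of them called.

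Within E13.5 muscle the ligand and the targets lay in different clusters. Cluster 1 (509 cells) held the progenitor genes Pax7 at 21.3 CPM and Msc at 313 CPM and the proliferation gene Mki67 at 137 CPM. Clusters 15 and 19 (243 cells together) held no Pax7 UMI, 4417 CPM of the differentiation factor Myog against 222 CPM in cluster 1, and 19.1 CPM of Mki67. Of 8 measured members 1 was higher and 5 lower in clusters 15 and 19 than in cluster 1, against 15.5% of genes higher and 26.3% lower. These are clusters of 1 library that were made from all genes, so the comparison is a description.

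Dll1 was at 31.5 CPM in clusters 15 and 19 and 9.84 CPM in cluster 1, a ratio of 3.202 (2.46 to 4.18). The excess lay in cluster 15, led by Myog, Vgll2 and Chrna1, with 45.6 CPM (37.7 to 54.7), while cluster 19, led by the contractile genes Mybph, Tnnc2 and Acta1, had 12.9 CPM (8.34 to 19.02) and passed neither way against cluster 1. Taken singly, 1 of 7 measured members was higher and 5 lower in cluster 15, against 11.9% and 22.4% of genes, and 0 of 8 were higher and 5 lower in cluster 19, against 16.4% and 30.1%. After thinning, 10.6% of cluster 15 cells, 3.75% of cluster 19 cells and 2.37% of cluster 1 cells held a Dll1 UMI, and 49.7%, 25.0% and 14.9% before it.

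The targets went the other way. Hes1 was at 40.8 CPM in clusters 15 and 19 and 395 CPM in cluster 1, a ratio of 0.103 (0.0886 to 0.120). Hey1 had 6 UMIs in clusters 15 and 19 and 594 in cluster 1, a ratio of 0.0228 (0.0083 to 0.0499). Heyl was at 1.78 CPM in clusters 15 and 19 and 27.7 CPM in cluster 1, a ratio of 0.0642 (0.0274 to 0.128). Notch3 was at 3.33 CPM in clusters 15 and 19 and 40.5 CPM in cluster 1, a ratio of 0.0823 (0.0456 to 0.137), and Notch2 was 0.471 of its level in cluster 1. Cluster 1 was therefore the high cluster for 3 targets and 2 receptors, and the intervals of its Hes1, Hey1, Heyl and Notch3 levels did not overlap those of either other cluster. Notch1 was at 7.55 CPM in clusters 15 and 19 and 10.7 CPM in cluster 1, and neither it nor Jag1 passed.

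**Figure D4:**
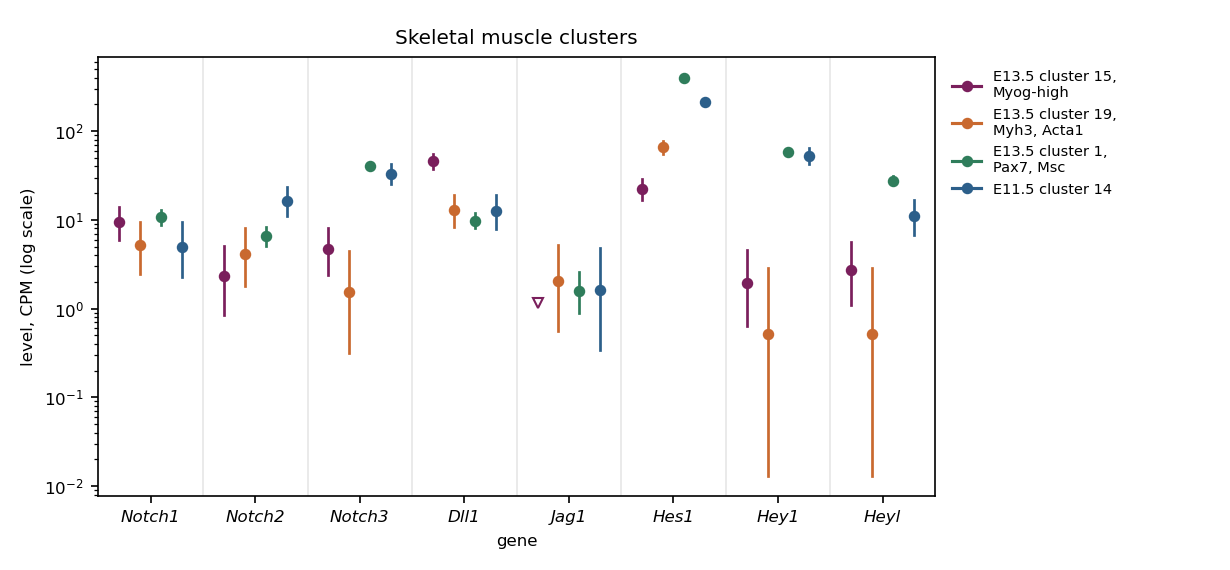
Level of 8 members in the skeletal muscle clusters, in CPM on a log scale, with exact 95% Poisson intervals for counting error. The E13.5 clusters 15, 19 and 1 come first, then E11.5 cluster 14, and an open triangle marks the level that a count of 0 allows. Dll1 is highest in cluster 15, at 45.6 CPM, and Notch3, Hes1, Hey1 and Heyl are high in cluster 1.

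Shares of cells holding pairs of genes were taken over all 752 E13.5 muscle cells. They pool clusters 1, 15 and 19, so they restate the difference between clusters and do not show a split within one. In E13.5 muscle Myog was found in 94.4% of the 177 cells with a Dll1 UMI and in 59.3% of the others, and after thinning in 87.5% of 32 cells and 45.4% of the others. Hes1 was found in 58.2% of cells with a Dll1 UMI and in 81.2% of the others, and after thinning in 15.6% and 37.7%. Pax7 was found in 26.7% of cells with a Hes1 UMI and in 2.75% of the others, and after thinning in 4.36% and 1.27%. Notch3 and Heyl went together before thinning, with Heyl in 44.6% of Notch3 cells and 16.5% of the others, but after thinning only 20 cells held Heyl and 1 of them Notch3. In the 151 E11.5 muscle cells, before thinning, Myog was found in 70% of 20 Dll1 cells and 41.2% of the others. Hes1 was found there in 75% and 82.4%, and Pax7 in 7.32% of Hes1 cells and 10.7% of the others. After thinning only 4 E11.5 cells held Dll1, with Hes1 in 50% of them and 31.3% of the others.

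Of 39 other pathway genes measured between these clusters 11 were higher and 11 lower, against 15.5% of all genes higher and 26.3% lower. Lfng was at 14.6 CPM in clusters 15 and 19 and 70.6 CPM in cluster 1, a ratio of 0.208, and Nrarp was at 1.11 and 8.76 CPM there. Hes6, which is known to promote differentiation, was at 649 CPM in clusters 15 and 19 and 282 CPM in cluster 1, a ratio of 2.304 (2.19 to 2.43). Dner had the highest ratio, 10.01 (6.87 to 14.99), and the ubiquitin ligase gene Neurl1a, named after its values were seen, had 5.41 (3.71 to 8.03). Rbpj was at 57.9 CPM in clusters 15 and 19 and 37.1 CPM in cluster 1, a ratio of 1.56 (1.33 to 1.83).

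Dll1 has 2 RefSeq promoter windows. The upstream one, at chr17:15376883-15377182 on the minus strand, is shown because Dll1 was highest where Myog was, and CAGCTG is a form of the E-box read by Myod1 and Myog. The motif is in capitals.
Dll1: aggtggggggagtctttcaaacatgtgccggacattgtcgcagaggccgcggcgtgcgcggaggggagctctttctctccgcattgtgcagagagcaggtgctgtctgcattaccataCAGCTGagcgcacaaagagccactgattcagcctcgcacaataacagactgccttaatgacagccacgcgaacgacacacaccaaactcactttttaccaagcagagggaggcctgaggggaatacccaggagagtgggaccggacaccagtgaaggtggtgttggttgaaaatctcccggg
CAGCTG, which reads the same on both strands, was in 16.3% of all 32851 windows, and in the Jag1 window too, so its presence is common and is a description of letters. The other Dll1 window held no match. Of the 54 windows of other pathway genes 7 held one, and that of Lfng held 2 matches.

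In the epithelium, the oral and outer covering, Notch1 and Jag2 were higher and Notch2, Notch3, Hey1 and Heyl lower at E13.5. Of 8 measured members 2 were higher and 4 lower, against 9.33% of 11677 genes higher and 14.2% lower (13.5% higher and 9.001% lower with median-of-ratios size factors, which move the median of all genes from -0.10 to 0.05). The median log2 ratio of the members was -0.33. Jag2 was at 9.33 CPM in the E13.5 epithelium and 4.72 CPM, from 14 UMIs, in the E11.5 epithelium, a ratio of 1.98 (1.12 to 3.75). Notch2 was at 5.47 CPM at E13.5 and 16.8 CPM at E11.5, a ratio of 0.324 (0.218 to 0.483). Notch3 was at 7.64 CPM at E13.5 and 14.5 CPM at E11.5, a ratio of 0.527 (0.360 to 0.781).

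Hey1 was at 3.77 CPM in the E13.5 epithelium and 9.77 CPM in the E11.5 epithelium, a ratio of 0.386 (0.233 to 0.645). Heyl had 11 UMIs at E13.5 and 10 at E11.5, a ratio of 0.308 (0.119 to 0.808). In cells called G1 none of these 4 lower calls held, with log2 ratios of -0.88 for Notch2, -0.59 for Notch3 and -1.03 for Hey1, and Heyl under 20 UMIs. Hes1, at 304 CPM at E13.5 and 254 CPM at E11.5, and Jag1, at 14.5 and 9.77 CPM, passed neither way. Notch1 was at 33.7 CPM at E13.5 and 21.9 CPM at E11.5, a ratio of 1.54 (1.18 to 2.04), and without E13.5 cluster 16 its log2 ratio was -0.11.

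Of 41 other pathway genes measured in the epithelium 4 were higher and 11 lower at E13.5, against 9.33% of all genes higher and 14.2% lower. The highest were Lfng, at 42.7 CPM at E13.5 and 20.6 CPM at E11.5 (2.08, 1.59 to 2.76), and Furin, a protease that matures the receptors, with a ratio of 2.06. Rfng, a further fringe enzyme, was higher with 1.94. The lowest were Hes5, at 3.39 CPM at E13.5 and 10.1 CPM at E11.5 (0.336, 0.201 to 0.564), and Hey2, with 0.387. The Hes5 values come from 36 UMIs in 7 cells at E13.5 and 30 UMIs in 10 cells at E11.5. Nrarp was at 49.8 CPM at E13.5 and 84.2 CPM at E11.5, a ratio of 0.591 (0.507 to 0.689), and Hes6 and Rbpj were lower with 0.650 and 0.640. Notch4 passed neither way, with 0.664.

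One E13.5 epithelial cluster stood apart in most of the measured members. Cluster 16 (159 cells) was led by Krtdap, Sprr1a and Krt6a, and its summed level of 6 periderm markers, the flat outermost layer of embryonic skin, was 1653 CPM, against 30.6 CPM in cluster 7 and 41.8 CPM in cluster 9. Its cells were shallow, with a median of 3061 UMIs against 13089 in clusters 7 and 9, and had a median of 13.8% mitochondrial UMIs, against 3.40% in cluster 7 and 3.16% in cluster 9. Of 7 measured members 6 were higher and 0 lower in cluster 16 than in clusters 7 and 9, against 18.7% of genes higher and 5.99% lower. The part of depth and RNA quality in these values was not tested.

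Notch1 was at 176 CPM in cluster 16 and 20.2 CPM in clusters 7 and 9, a ratio of 8.70 (7.02 to 10.8). Notch3 was at 51.1 CPM in cluster 16 and 3.51 CPM in the others, a ratio of 14.55 (9.16 to 23.3). Jag1 was at 60.8 CPM in cluster 16 and 10.1 CPM in the others, a ratio of 6.02 (4.25 to 8.44). Notch1, Notch3 and Jag1 were thus highest, among epithelial clusters, where the periderm markers were. Hes1 was at 708 CPM in cluster 16 and 266 CPM in the others, a ratio of 2.67 (2.44 to 2.91). Notch2 and Hey1 had ratios of 4.01 and 5.67, and Jag2 passed neither way, at 15.2 CPM in cluster 16 and 8.77 CPM in the others.

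Of 39 other pathway genes measured there 14 were higher and 0 lower in cluster 16, against 18.7% of all genes higher and 5.99% lower. Hes5 had 35 UMIs, or 38.0 CPM, in cluster 16, all in 6 of its 159 cells, and 1 UMI in clusters 7 and 9, which hold 679 cells. Nrarp was at 230 CPM in cluster 16 and 32.6 CPM in the others, a ratio of 7.06 (5.91 to 8.43). Lfng was at 76.1 CPM in cluster 16 and 39.5 CPM in the others, a ratio of 1.92 (1.47 to 2.49).

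At E11.5 no epithelial cluster was led by periderm genes. Cluster 9, led by Fgf8, Cldn4 and Nkx2-3, had higher levels of 4 of 6 measured members than cluster 15, led by Gjb2 and Tfap2b, and lower levels of 0, against 4.7% of genes higher and 4.44% lower. Notch1 was at 27.9 CPM in cluster 9 and 8.62 CPM in cluster 15, Notch3 at 18.1 and 6.47 CPM, Hes1 at 318 and 113 CPM (2.81, 2.28 to 3.49), and Hey1 at 13.7 and 1.08 CPM. Hes5 had 30 UMIs, in 10 of 275 cells, in cluster 9 and 0 in cluster 15, and Nrarp was at 108 and 32.3 CPM. Lfng ran against these targets, with 15.2 CPM in cluster 9 and 32.3 CPM in cluster 15, and was called lower. The 2 clusters had nearly equal median depths, 6486 and 6508 UMIs.

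**Figure D5:**
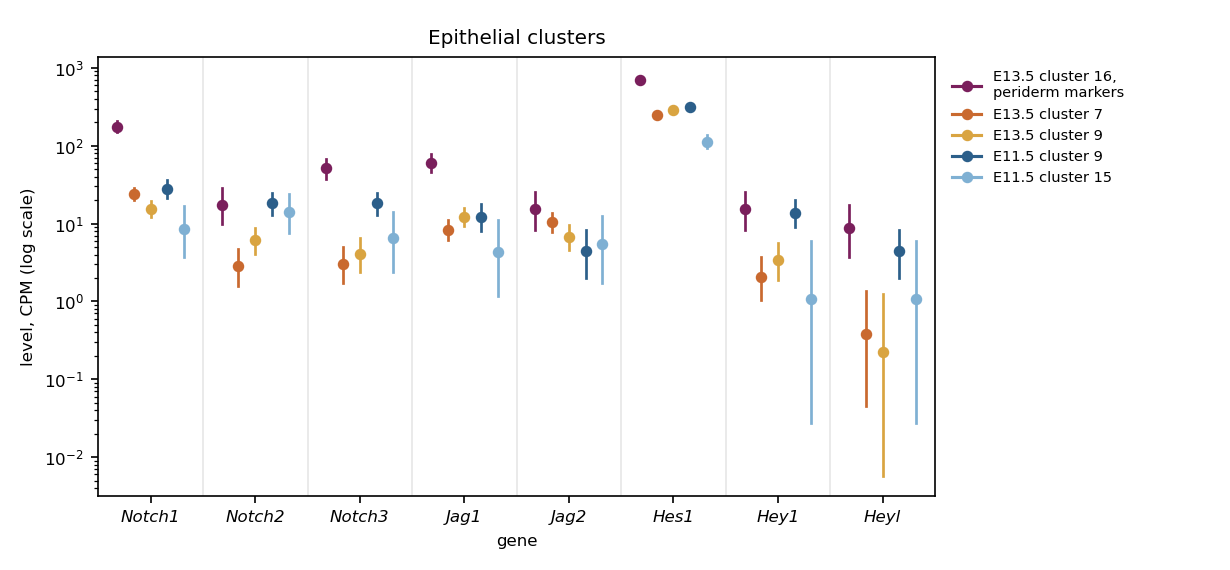
Level of 8 members in the epithelial clusters, in CPM on a log scale, with exact 95% Poisson intervals for counting error, E13.5 clusters 16, 7 and 9 before E11.5 clusters 9 and 15. Cluster 16 is highest for Notch1, at 176 CPM, and for Notch3, Jag1 and Hes1.

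In the endothelium, the vessel lining, Hey1 was lower at E13.5, at 14.1 CPM against 35.2 CPM at E11.5, a ratio of 0.399 (0.228 to 0.676). Of 4 measured members 0 were higher and 1 lower, against 7.43% of 8586 genes higher and 13.6% lower (10.7% higher and 9.80% lower with median-of-ratios size factors, which move the median of all genes from -0.12 to 0.00). The median log2 ratio of the 4 members was 0.31. Notch1, the main endothelial receptor, was at 71.0 CPM at E13.5 and 56.6 CPM at E11.5, Dll4 at 33.5 and 22.1 CPM, and Hes1 at 171 and 139 CPM, with no call. Notch2 and Notch3 had 3 and 2 UMIs at E13.5 and 10 and 13 at E11.5, and Heyl had none at either stage. The E11.5 endothelial cluster also held macrophage markers, with a summed 865 CPM against 14.1 CPM at E13.5.

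Of 33 other pathway genes measured in the endothelium 2 were higher and 1 lower, against 7.43% of all genes higher and 13.6% lower. Notch4, a receptor known from endothelium, was at 52.9 CPM at E13.5 and 28.3 CPM at E11.5, a ratio of 1.87 (1.27 to 2.79), and Dtx3 had 1.82, while Dtx2 was lower with 0.5502. Nrarp was at 141 CPM at E13.5 and 133 CPM at E11.5, and Mfng at 126 and 118 CPM. Hes5, Hes6, Lfng, Rfng and Rbpj had ratios of 0.424, 1.23, 1.14, 0.776 and 0.727 and passed neither way.

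Endothelial cells with at least 2 arterial markers, of 7 listed at E13.5 and 6 listed at E11.5, were set against the others of their library. The markers hold no member. At E13.5 3 of 4 measured members were higher in the 47 arterial-marker cells than in the other 90, against 2.79% of genes higher and 3.15% lower. Hey1 was at 23.1 CPM in the arterial-marker cells and 4.20 CPM, from 3 UMIs, in the others, a ratio of 5.51 (1.61 to 29.2). Notch1 and Hes1 had ratios of 1.79 and 1.88, and Dll4, at 42.4 and 23.8 CPM, was not called. At E11.5 4 of 4 measured members were higher in 44 such cells than in 118 others, against 4.2% higher and 4.91% lower. Hey1 was at 89.6 CPM in the arterial-marker cells and 10.98 CPM in the others, a ratio of 8.15 (4.11 to 17.6), and Dll4 at 44.8 and 11.98 CPM, a ratio of 3.74 (1.74 to 8.38). Arterial-marker cells had median depths of 13072 UMIs at E13.5, against 5258 in the others, and 8636 at E11.5, against 7153. The E11.5 cluster held macrophage markers, at a summed 865 CPM, and Pf4 and Ppbp were among its leading genes. No such cells were left out of the others here, and their part in the E11.5 ratios was not tested.

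Cells with at least 2 of 4 tip-cell markers, the genes of the leading cell of a sprout, were 23 at E13.5 and 26 at E11.5. Dll4 was at 57.4 CPM in the E13.5 tip-marker cells and 22.5 CPM in the other E13.5 endothelial cells, a ratio of 2.55 (1.41 to 4.66). At E11.5 it was at 40.7 CPM in the tip-marker cells and 16.8 CPM in the others, a ratio of 2.42 (1.10 to 5.16). Notch1 was higher at both stages, with 1.80 and 1.73, and Hey1 at E11.5, with 2.90. So 2 of 4 measured members were higher at E13.5, against 3.3% of genes higher and 3.02% lower, and 3 of 4 at E11.5, against 3.9% and 4.32%. Tip-marker cells too were the deeper ones, with medians of 19015 UMIs at E13.5, against 6455 in the others, and 12112 at E11.5, against 7233. In both marker sets the part of depth was not tested, nor at E11.5 that of cells with macrophage markers among the others.

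In glia, led by Sox10 and Fabp7, Heyl had its highest level of any cluster, 58.0 CPM (45.7 to 72.6) in 102 E13.5 cells and 70.0 CPM (41.5 to 111) in 26 E11.5 cells. After thinning 12.9% of E13.5 and 15.4% of E11.5 glial cells held it, against 0 erythroid cells at either stage. The next cluster at E13.5 was muscle cluster 1, at 27.7 CPM. Glial Notch1 was at 38.2 CPM (28.3 to 50.3) at E13.5, and Hey1 at 2.29 CPM. The class had under 50 cells at E11.5 and was not compared between stages.

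Levels also differed by the authors' cell cycle phase, which follows cell type. In E13.5 muscle Hes1 was at 57.5 CPM in G1, 358 CPM in S and 398 CPM in G2M cells, and Dll1 at 27.9, 9.75 and 13.5 CPM, while cluster 1 had 3.54% and cluster 19 100% of its cells in G1. In the E13.5 mesenchyme Heyl was at 0.888 CPM in G1, 2.296 CPM in S and 4.95 CPM in G2M cells. Hey1 there was at 16.3, 14.5 and 23.0 CPM, and in the E11.5 mesenchyme at 12.2, 15.7 and 19.7 CPM. Hes1 in the mesenchyme was nearly level at E13.5, between 118 and 125 CPM, and at E11.5 was at 99.2 CPM in G1, 70.0 CPM in S and 67.4 CPM in G2M cells.

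Genes with the most similar pattern over clusters of at least 50 cells were ranked by the smaller of 2 Pearson correlations of log2(CPM + 1), over 22 E13.5 and 17 E11.5 clusters, which share a library within a stage. They are a description. Dll4 was most like the endothelial genes Emcn, Aplnr and Cdh5 (0.94, 0.93 and 0.93), Dll1 like Fitm1, Tnnt1 and Myod1 (0.87, 0.87 and 0.86), and Jag2 like Trp63, Bcam and Wnt7b (0.87, 0.84 and 0.83). Notch1 was most like Baiap2, Cd151 and Pqlc1 (0.85, 0.82 and 0.82), Notch2 like Sc5d, Kdelr2 and Evc2 (0.81, 0.78 and 0.78) and Notch3 like Hsd17b7, Elovl6 and Tpst1 (0.81, 0.81 and 0.79). Jag1 was most like Clstn1, St7 and Gja1 (0.80, 0.79 and 0.78) and Hes1 like Noc2l, Acaa2 and Plagl2 (0.79, 0.79 and 0.77). The target genes Hey1, nearest to Fkbp5, Timm8a1 and Bok (0.63, 0.56 and 0.55), and Heyl, nearest to Cadm1, Msc and Nkain4 (0.56, 0.56 and 0.54), had no close match.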

How the data were processed

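Single-cell RNA was measured in 1 library per stage. The authors deposited a table of raw UMI counts and a metadata table for each stage. Cell Ranger 2.0.0, Seurat 2.3.4 and the mm10 genome appear, per the submitters' processing notes, without a stated role or order. For the gene annotation, strand use, cell filters and doublet removal the answer is not given in the sources used here. No cell was removed as a doublet. In the deposited metadata the mitochondrial share is a fraction, printed here as a percent. The deposited cell cycle score was not used, only the authors' phase calls and clusters.

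Clusters were put in classes by the authors' lineage names and checked against marker lists. E11.5 cluster 17 carries the authors' mesenchyme name but glial leading genes, and was called glia. E13.5 cluster 20 carries the name mast cells but macrophage leading genes, and E13.5 cluster 8 stayed unnamed. E11.5 cluster 14, with no lineage name, led with muscle markers. UMIs were summed per class or cluster and scaled to CPM. Ratios have exact conditional binomial 95% intervals, levels exact Poisson intervals, and shares of cells exact Clopper-Pearson intervals. A count of 0 allows 3 counts. Ratios were computed over all genes with at least 20 UMIs, and no p-value is given. The calling step was checked on simulated counts. Depth was 49913485 to 67838169 UMIs per library, which limits most the members with few UMIs, at E11.5 Jag2, Dll1, Dll4 and Heyl with 24 to 64.

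The members, gene lists and comparisons were chosen with earlier results of these data known. Named genes are the members, 9 pathway genes wherever measured, the 2 highest and 2 lowest called pathway genes of each class, and the 3 genes most like each member. Other genes are cluster markers, or were picked from their values, which the text then states. Alternatives were other scalings, filters, folds, phases and cell sets. Promoters are from RefSeq and coordinates from GENCODE (GRCm38). The software was pandas 2.3.3, scipy 1.17.1 and numpy 2.4.6 under Python 3.11.15, with matplotlib 3.10.9 for figures.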

Additional observations from a re-analysis of the deposited data

Results flagged for a closer look

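Heyl moved in opposite directions between cell classes. Its E13.5 over E11.5 ratio was 5.30 (3.07 to 9.73) in the mesenchyme and 1.80 (1.14 to 2.99) in skeletal muscle, but 0.308 (0.119 to 0.808) in the epithelium, and all 3 passed the rule of size. With 1 library per stage the difference between classes was not tested. The mesenchymal value rested on 78 and 16 UMIs, the muscle value on 289 and 20, and the epithelial value on 11 and 10.

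Notch2 was at 54.9 CPM (38.5 to 76.0, 36 UMIs) in E13.5 cluster 8, which has no lineage name, a median of 935.5 UMIs per cell and Notch2 itself and haemoglobin genes among its leading genes. No comparison between classes or stages used this cluster, but it was among the 22 E13.5 clusters over which similar genes were ranked. The next cluster, 21, had 37.3 CPM from 5 UMIs, a ratio of 1.47 (0.576 to 4.81) that passed neither way. The level was above the 0.558 CPM of the E13.5 erythroid cluster, whose deep cells can understate the background in cells as shallow as these. In cluster 8, 28 of 304 cells held a UMI.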

How the results depend on the processing

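Of 158 recomputed counts 125 stayed within 1.5 times the reported count. Of 224 recomputed log2 ratios 175 stayed close to the reported one, 46 moved and 3 reversed. For ratios between stages, close meant inside the reported counting interval. For ratios within a library it meant within 1.5-fold of the reported ratio. Of 160 recomputed shares of cells 56 stayed within the reported interval and 104 moved, under no thinning or thinning to 1000 UMIs. Notch1 in the epithelium was at a log2 ratio of -0.11 without E13.5 cluster 16, a choice made after seeing the data, and in G1 cells of muscle Notch1 was at -0.16 and Heyl at -2.30. The cause was not tested.

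With size factors 5 other pathway genes were lower in mesenchyme (3 reported), 3 in muscle (7) and 0 in endothelium (1), and 1 member was higher in endothelium (0). With a total lacking haemoglobin, mitochondrial and ribosomal protein genes, 1 member was lower in mesenchyme (2) and 1 higher in endothelium (0), and 4 pathway genes were lower in muscle and 0 in endothelium. With mean per-cell CPM, 1 member was lower in mesenchyme and 1 higher in endothelium, and 10 pathway genes were higher in epithelium (4) and 7 in endothelium (2).

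With a fold of 2, 1 member was lower in mesenchyme and 0 were higher in epithelium and muscle (2 each). Pathway genes then numbered 0 lower in mesenchyme, 2 higher and 4 lower (11) in epithelium, 1 lower in muscle, and 0 either way in endothelium. In G1 cells 2 members were higher (4) and 1 lower in mesenchyme, 0 lower in epithelium (4), and 0 higher and 3 lower (1) in muscle.

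With the E11.5 cell limits in both libraries, 1 member was higher in epithelium and 0 pathway genes lower in endothelium. Without cluster 16, 1 member was higher in epithelium. With no minimum, 2 members were lower in endothelium (1) and 4 pathway genes higher. With E13.5 cluster 1 alone, also chosen after seeing the data, 3 pathway genes were higher in muscle (6), and with cluster 19 alone 0 members were higher than in cluster 1 (1). A minimum of 3 mural markers left no E11.5 cells. Depth limits Dll1, Dll4 and Jag2 most. No paired analysis was possible because each stage has 1 library.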
